A study of Rattus norvegicus with 60 samples.

Results

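The mitosis genes are a set of 40 listed genes whose products carry a cell from the end of G2 phase through chromosome segregation to cytokinesis. They were chosen by name, and 35 of the 40 had a probe set with that gene symbol alone on the rat array, among 14217 genes measured in all. Anln, Ncapg, Cdc25c, Ndc80 and Tpx2 were not analysed here. A gene with more than 1 probe set was represented by its brightest, judged by the mean of all 60 arrays. Every value is the log2 expression value of that probe set, and a difference of 1 is a 2-fold difference.

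Entry into mitosis is driven by the kinase CDK1 bound to cyclin B, and is helped by the Polo-like and Aurora kinases. The spindle checkpoint then holds chromosome separation until every kinetochore is attached to microtubules, after which CDC20 and the ubiquitin enzymes of the anaphase-promoting complex destroy securin and cyclin B. Motor and bundling proteins build the spindle, and the central spindle places the contractile ring that divides the cell. The transcripts of these proteins accumulate late in the cell cycle and are scarce in the adult liver, whose hepatocytes rarely divide but re-enter the cycle after tissue loss or exposure to mitogens.

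The series compared hepatocytes (HC) and mesenchymal cells (MC) isolated from livers of Wistar rats aged 8 weeks that had been given phenobarbital (PB), cyproterone acetate (CPA) or vehicle. Phenobarbital, a barbiturate, induces the enzymes of drug metabolism, cyproterone acetate, a steroid, blocks the androgen receptor and acts as a progestin, and both are known to enlarge the rat liver. In each fraction CPA at 100 mg/kg was given once (24 h, 3 arrays) or on each of 6 days (3 arrays), against corn oil (CO) at 10 ml/kg for 24 h (5 arrays) or 6 d (3 arrays). PB at 50 mg/kg was given once by gavage (24 h, 3 arrays) or in drinking water for 14 d (3 arrays), against water (H2O) for 24 h (3 arrays) or 14 d (3 arrays). The labels also hold 4 arrays per fraction coded CO_Co, from rats given corn oil for 24 h, whose difference from the CO group the labels do not explain, and these served as an alternative control. The CPA and corn oil rats were labelled female and the PB and water rats male, apart from replicate 3 of PB and of water at 24 h, labelled female in each fraction. The sexes, vehicles and compounds coincide, so PB and CPA cannot be told apart from sex and vehicle.

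The 30 HC and 30 MC arrays had medians of 3.25 to 3.39 and 3.39 to 3.44 over all 31042 probe sets, a wider set than the 14217 that stand for genes. The Y-linked gene Eif2s3y stood at 6.94 to 7.26 on the 4 PB and water arrays labelled female, within the 5.88 to 7.41 of all 24 PB and water arrays and above the 0.71 to 1.43 of the 36 CPA and corn oil arrays. Xist stood at 0.86 to 2.11 on the same 4 arrays and at 8.17 to 9.72 on the 36. By both genes the 4 arrays match the arrays labelled male and not their own label. MC replicates 1 and 2 of CPA at 6 d differed by at most 0.99 over the 20826 probe sets with 1 gene symbol, and MC replicates 1 and 2 of water at 24 h by at most 1.34. The next closest pair, HC replicate 1 of CO at 24 h and HC replicate 1 of CO_Co, came from different corn oil groups and differed by at most 1.84. The next within a group differed by at most 2.21, and the median pair of a group by 5.97. Both pairs were kept as separate arrays, and results that rest on them are also given with each pair averaged. The mean of 13 hepatocyte markers was 11.84 to 11.96 in the vehicle groups of HC and 8.65 to 10.25 in those of MC, so hepatocyte transcripts were measured in MC as well. Nothing in the labels says that replicates came from separate animals, and the p-values measure the spread between these arrays.

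Promoter sequence was examined because most of the genes rose together after CPA. Of the 35 genes, 30 had an entry among the RefSeq promoters of build GRCr8, each with 250 bases before and 50 after the annotated start. Pbk, Aurkb, Ube2c, Pimreg and Racgap1 had none. The cell cycle genes homology region (CHR), an element through which the MuvB complexes are known to act on late cell cycle genes, was searched as TTTGAA or TTCGAA on both strands. The CCAAT box, the element of the factor NF-Y, was searched on both strands as well. A CHR lay in 21 of the 30 promoters (70.0%), against 14.0% of the 11733 promoters of genes tested here and 19.5% of all 27457 promoters of the table. In all 21 a match lay between 100 bases before and 50 bases after the start, against 5.6% of the promoters of genes tested. A CCAAT box lay in 23 (76.7%, against 37.3%), 2 or more in 18 (60%, against 12.5%), and both elements in 18 (60%, against 5.8%). In Mki67 and Cdca8 a CHR match overlaps a CCAAT match. A further list of mitosis genes, described with the results, had a CHR in 30 of 43 promoters (69.8%). These counts describe letters in a window and not bound sites. The 150 bases before the start are shown for 6 genes, 5′ to 3′ on the gene's strand, with CHR and CCAAT matches in capitals (CCAAT reads ATTGG, and TTTGAA reads TTCAAA, on the other strand). Cdk1, Cdc20, Hmmr, Top2a and Mki67 show a CHR beside a CCAAT box, and Ccnb1 shows a gene of the same kind with CCAAT boxes and no CHR match in its window. They were chosen after their values and matches were known.
Cdk1 (chr20:19265143-19265292, plus strand): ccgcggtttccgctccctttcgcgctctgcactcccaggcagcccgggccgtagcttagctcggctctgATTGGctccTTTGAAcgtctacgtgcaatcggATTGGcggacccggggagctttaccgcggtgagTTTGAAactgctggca
Cdc20 (chr5:137255800-137255949, minus strand): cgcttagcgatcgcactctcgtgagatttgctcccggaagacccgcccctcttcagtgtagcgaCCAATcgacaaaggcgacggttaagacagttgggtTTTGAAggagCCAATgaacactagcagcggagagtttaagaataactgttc
Hmmr (chr10:25665216-25665365, minus strand): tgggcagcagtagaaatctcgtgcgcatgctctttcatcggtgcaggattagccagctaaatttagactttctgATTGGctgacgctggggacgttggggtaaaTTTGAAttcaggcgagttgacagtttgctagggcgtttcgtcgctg
Top2a (chr10:84473094-84473243, minus strand): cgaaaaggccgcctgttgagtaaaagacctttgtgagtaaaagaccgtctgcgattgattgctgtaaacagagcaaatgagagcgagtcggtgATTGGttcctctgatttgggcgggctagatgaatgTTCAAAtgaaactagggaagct
Mki67 (chr1:199952594-199952743, minus strand): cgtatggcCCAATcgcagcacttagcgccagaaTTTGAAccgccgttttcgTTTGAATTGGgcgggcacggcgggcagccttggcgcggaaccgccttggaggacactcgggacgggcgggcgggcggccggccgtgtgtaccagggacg
Ccnb1 (chr2:33655226-33655375, minus strand): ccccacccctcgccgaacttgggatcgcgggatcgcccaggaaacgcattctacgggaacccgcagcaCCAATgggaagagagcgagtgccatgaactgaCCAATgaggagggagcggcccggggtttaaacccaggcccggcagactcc

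In Cdk1 the CHR matches began at positions -72 and -16 counted from the start, and CCAAT boxes lay at -81 and -49. In Cdc20 a single CHR at -51 lay between CCAAT boxes at -86 and -41. The 9 promoters with an entry and no CHR match were those of Ccnb1, Aurka, Melk, Bub1, Cdca3, Kif11, Kif20a, Kif2c and Dlgap5. Among them Bub1 and Cdca3 had changes as large as those of genes with a match, 3.27 and 3.33 in HC at 24 h of CPA, while Dlgap5 and Kif2c changed by 1.82 and 1.64.

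Without treatment the mitosis genes were dim in both fractions. The mean over the 35 genes was 3.02 to 3.38 in the 5 vehicle groups of HC and 3.57 to 3.96 in those of MC. Over all 60 arrays, 3 of the 35 genes stood above the median gene (4.84). In limma, 23 of the 35 were called lower in vehicle HC than in vehicle MC and 0 higher, against 34.8% of all genes lower and 49.5% higher, with a median difference of -0.46 for the 35 and 0.13 for all genes. Racgap1 (-1.51, SE 0.15), Mki67 (-1.24, SE 0.19), Cdk1 (-1.20, SE 0.21) and Kif23 (-1.09, SE 0.11) were farthest below MC. With the arrays shifted to a common median, which moved the median of all genes to 0.50, 11 of the 35 were called lower and 4 higher, so the direction of the smaller differences depends on the scaling. With a term for sex as labelled 9 were called, all lower. That term could be estimated only from replicate 3 of PB and water at 24 h. Their Eif2s3y and Xist levels matched the arrays labelled male, so the term does not adjust for sex. With the near-identical arrays averaged 23 were called.

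**Figure D1:**
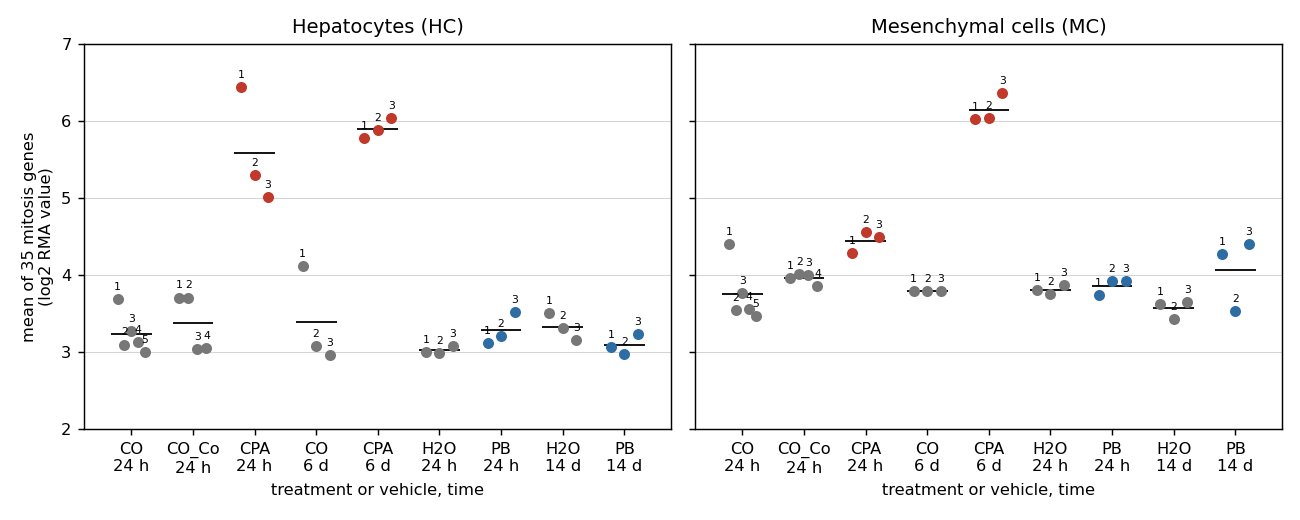
Mean log2 value of the 35 measured mitosis genes on each of the 60 arrays, by treatment or vehicle and time, in hepatocytes (left) and mesenchymal cells (right). Points are arrays with their replicate numbers, bars are group means, and red marks cyproterone acetate, blue phenobarbital and grey vehicle. Cyproterone acetate lies at 5.01 to 6.44 in hepatocytes at both times, and at 4.29 to 4.56 and then 6.03 to 6.37 in mesenchymal cells.

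Cyproterone acetate raised nearly the whole mitotic gene set in hepatocytes within 24 h. The mean over the 35 genes stood at 6.44, 5.30 and 5.01 on the 3 CPA arrays, against 3.69, 3.10, 3.27, 3.13 and 3.00 on the corn oil arrays. In limma with Benjamini-Hochberg adjustment over all genes, 34 of 35 were called higher and 0 lower, against 22.5% of all genes called higher and 11.7% lower. The median change was 2.43, against -0.01 for all genes. All CPA arrays lay above all corn oil arrays for 34 of the 35, against 3345 of all 14217 genes. The largest rises were those of Ect2 (3.66, SE 0.47), Cdk1 (3.61, SE 0.49) and Racgap1 (3.60, SE 0.35), or 12.6-fold, 12.2-fold and 12.1-fold. The exception was Pimreg, a regulator of the metaphase to anaphase step, at 1.87 with CPA and 1.84 with corn oil (adjusted p = 0.882 in limma). The count was 34 without any single array of the comparison, and 34 with CO_Co as the control. Arrays shifted to a common median moved the change of all genes to -0.15 and that of the 35 to 2.29.

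After 6 d of daily CPA nearly the whole set was again higher in hepatocytes, and the treated arrays lay closer together. The mean over the genes was 5.78, 5.88 and 6.04, against 4.12, 3.08 and 2.96 in corn oil for 6 d. Again 34 of 35 were called higher and 0 lower, against 15.0% and 9.29% of all genes, with a median change of 2.61. All CPA arrays lay above all corn oil arrays for 34 of the 35, against 3365 of all 14217 genes. Cdk1 (3.93, SE 0.55), Ccnb1 (3.89, SE 0.40) and Ect2 (3.74, SE 0.53) rose most, and Pimreg was again not called (0.19, adjusted p = 0.497 in limma). Replicate 1 of corn oil for 6 d held the highest value of its group for 34 of the 35 genes, and 34 genes were called without it as well, with a median change of 3.08. With a common median of all arrays the change of all genes was -0.19 and that of the 35 was 2.43.

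The kinases and cyclins of mitotic entry all rose at both times in HC, 8 of 8. Cdk1, the kinase whose activation starts mitosis, stood at 4.67, 3.43, 3.56, 3.40 and 3.08 in corn oil at 24 h and at 8.40, 7.0 and 6.32 with CPA. At 6 d it stood at 5.18, 3.38 and 2.79 in corn oil and at 7.60, 7.57 and 7.98 with CPA. No CPA array overlapped its corn oil group, although replicate 1 was the highest corn oil array at both times. The change was 3.61 at 24 h (12.2-fold, adjusted p = 1.96e-06) and 3.93 at 6 d (15.3-fold, adjusted p = 5.27e-06) in limma. Ccnb1, the cyclin that activates CDK1, was at 3.80, 2.66, 2.67, 2.98 and 2.69 in corn oil at 24 h and 6.24, 5.12 and 4.47 with CPA. At 6 d the values were 3.77, 2.60 and 2.33 in corn oil and 6.79, 6.82 and 6.77 with CPA. It rose by 2.32 (SE 0.36) at 24 h and by 3.89 (SE 0.40) at 6 d, with adjusted p of 1.02e-05 and 4.40e-08 in limma. Plk1, the Polo-like kinase that matures centrosomes and helps to activate CDK1, moved least of the called genes at 24 h. Its values were 4.14, 3.54, 3.93, 3.83 and 3.99 in corn oil and 4.94, 4.41 and 4.58 with CPA at 24 h, and 3.74, 3.64 and 3.55 against 4.81, 4.98 and 5.12 at 6 d. All CPA arrays were above all corn oil arrays, with rises of 0.76 (SE 0.17) and 1.33 (SE 0.19).

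Of the other entry genes, Ccnb2 (cyclin B2) rose by 2.15 and 3.65, and Aurka, the centrosomal Aurora kinase, by 2.42 and 2.20. Pbk, a kinase active in mitotic cells, rose by 3.00 and 3.04, and Melk, a kinase of the same expression phase, by 2.27 and 2.48. Cks2, the small subunit that docks CDK1 to its substrates, rose by 1.83 and 1.31 from corn oil means of 5.88 ± 0.49 (SD, n = 5) and 6.12 ± 0.32 (n = 3).

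The kinetochore and spindle checkpoint genes rose in HC too, 7 of 7 at each time. Bub1, a checkpoint kinase that marks centromeric chromatin, stood at 3.39, 2.48, 2.65, 2.27 and 2.56 in corn oil at 24 h and at 6.94, 5.42 and 5.46 with CPA. At 6 d the values were 4.12, 2.54 and 2.19 against 5.67, 5.82 and 5.92. The groups did not overlap at either time, and the rises were 3.27 (SE 0.34) and 2.85 (SE 0.38), with adjusted p of 4.45e-08 and 2.79e-06 in limma. Spc25 and Nuf2 encode subunits of the NDC80 complex that binds microtubules: Spc25 rose by 3.56 and 3.48, and Nuf2 by 2.53 and 1.81. Ttk, the kinase that recruits checkpoint proteins to unattached kinetochores, rose by 2.71 and 3.18. Mad2l1, which holds CDC20 inactive, rose by 2.19 and 2.21, its partner Bub1b by 1.57 at both times, and the kinetochore protein Cenpf by 1.51 and 1.45.

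The chromosomal passenger complex corrects faulty kinetochore attachments and guides cytokinesis, and its 3 measured members rose at both times in HC. Aurkb, its kinase, stood at 3.23, 3.16, 2.96, 2.82 and 3.08 in corn oil and at 6.43, 5.30 and 4.82 with CPA at 24 h, and at 4.08, 3.01 and 2.91 against 5.96, 6.07 and 6.09 at 6 d. Every CPA array lay above every corn oil array, and the rises were 2.46 (SE 0.27) and 2.70 (SE 0.31). Cdca8 (borealin) rose by 1.83 and 2.17. Birc5 (survivin) rose by 0.92 (SE 0.20) at 24 h and by 1.95 (SE 0.23) at 6 d.

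Among the genes of anaphase and protein destruction, 4 of 5 rose at each time in HC, Pimreg being the exception. Cdca3, a protein that promotes mitotic entry, rose by 3.33 and 3.07, and Ube2c, the ubiquitin-conjugating enzyme of the anaphase-promoting complex, by 2.85 and 3.06. Cdc20, the activator of that complex, rose by 2.31 and 2.44, and Pttg1, the securin that it destroys, by 1.27 and 1.77.

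All 6 spindle motor and microtubule genes rose at both times in HC. Hmmr, a spindle-associated hyaluronan receptor, rose by 2.97 at each time. Nusap1, which bundles spindle microtubules, rose by 2.50 and 2.98, Kif11, the motor that pushes the spindle poles apart, by 2.44 and 2.81, and Kif20a, a late mitotic motor, by 2.43 and 3.03. Kif2c, a microtubule depolymerase that acts at centromeres, rose by 1.64 and 1.62, and the spindle protein Dlgap5 by 1.82 and 1.46.

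The central spindle and cytokinesis genes, 4 of 4 at each time, held the largest median rise at 6 d after CPA among the role groups of HC (3.05) and the second largest at 24 h (3.10). Racgap1, the GTPase-activating subunit of the centralspindlin complex, stood at 3.27, 2.32, 3.06, 2.27 and 2.44 in corn oil and at 7.0, 6.04 and 5.79 with CPA at 24 h. At 6 d it was at 3.96, 2.12 and 2.74 in corn oil and at 6.50, 6.45 and 6.46 with CPA. Neither time showed overlap, and the rises of 3.60 and 3.53 had adjusted p of 1.55e-08 and 1.41e-07 in limma. Ect2, the exchange factor that triggers assembly of the contractile ring, rose by 3.66 and 3.74, Prc1, which crosslinks midzone microtubules, by 2.61 and 2.57, and Kif23, the motor partner of Racgap1, by 1.19 and 2.22.

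Top2a and Mki67 act on chromosome structure. Top2a, the topoisomerase that untangles sister chromatids, stood at 3.99, 3.06, 3.44, 3.21 and 3.21 in corn oil and 7.59, 6.04 and 5.65 with CPA at 24 h, and at 4.86, 3.35 and 3.15 against 6.31, 6.46 and 6.75 at 6 d. Mki67, which encodes the proliferation marker Ki-67 that coats mitotic chromosomes, stood at 3.75, 3.25, 2.96, 2.65 and 3.05 in corn oil and 7.72, 6.35 and 5.53 with CPA at 24 h, and at 4.95, 2.71 and 2.49 against 5.49, 6.18 and 6.30 at 6 d. Neither gene overlapped, but the gap for Mki67 at 6 d, between 4.95 and 5.49, was narrow beside a mean difference of 2.61. The rises were 3.05 and 2.72 for Top2a and 3.40 (SE 0.46, 10.6-fold) and 2.61 (SE 0.51, 6.11-fold) for Mki67, with adjusted p for Mki67 of 1.77e-06 and 3.66e-04 in limma.

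**Figure D2:**
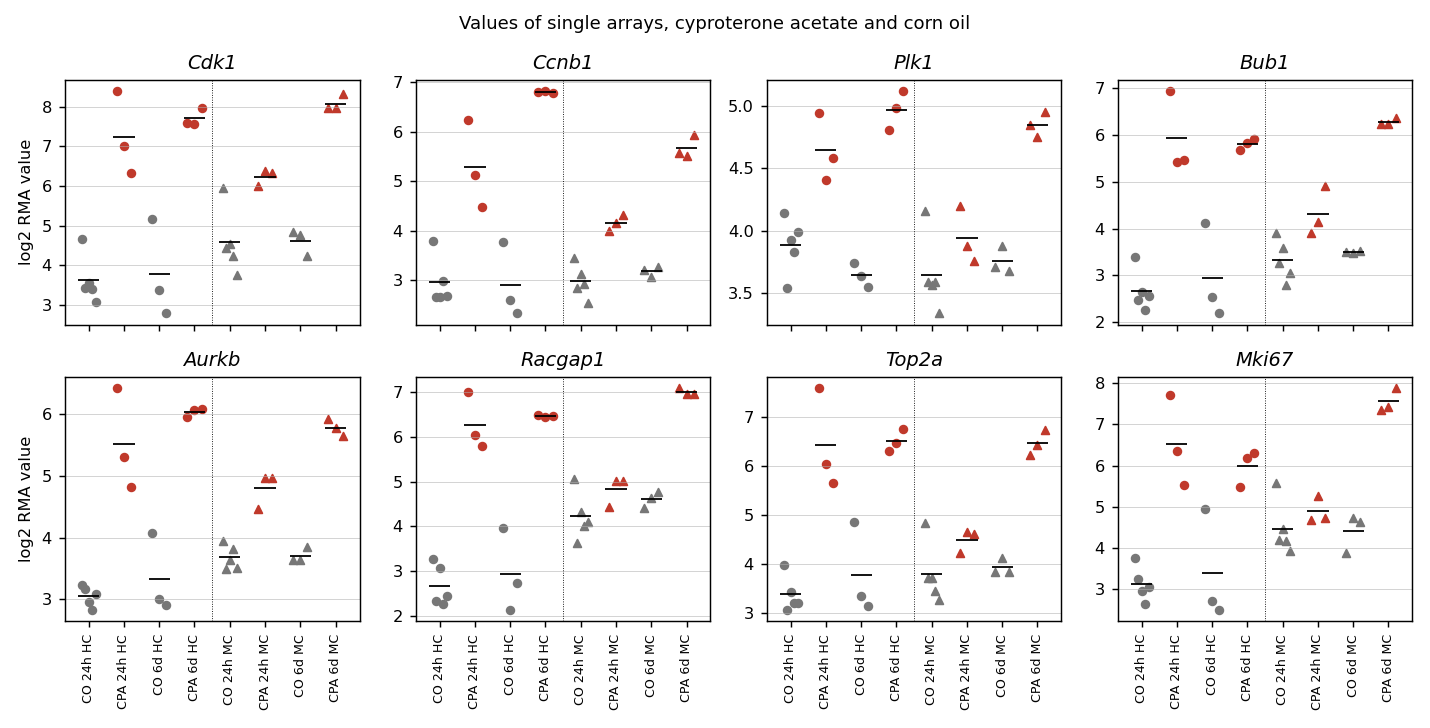
Log2 values on single arrays for 8 mitosis genes after cyproterone acetate (red) and corn oil (grey), in hepatocytes (circles) and mesenchymal cells (triangles). Bars are group means and each panel has its own scale. In hepatocytes every treated array lies above every vehicle array, and in mesenchymal cells this holds for all 8 genes at 6 d.

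Between 24 h and 6 d the hepatocyte response differed for few genes. In limma the change was larger at 6 d for Ccnb1 by 1.58 (SE 0.53, adjusted p = 0.0471) and for Birc5 by 1.03 (SE 0.31, adjusted p = 0.0241), 2 of 35 genes against 6.82% of all genes higher and 7.70% lower. Across the 35 genes the changes at the 2 times had a Pearson r of 0.81. The 2 times used separate arrays, but the genes share the arrays of each time, so that r is a description without a test. Both calls rest on few arrays. The count was 0 without corn oil replicate 3 for 6 d, without CPA replicate 2 or 3 at 24 h, or without CPA replicate 2 or 3 at 6 d. It was 1 without corn oil replicate 1 or 4 at 24 h, corn oil replicate 2 for 6 d or CPA replicate 1 at 6 d, and 3 without corn oil replicate 1 for 6 d.

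Markers of other cell types were measured beside the hepatocyte rises. At 24 h of CPA the cholangiocyte list was the only one of 9 with a higher mean than in corn oil. The macrophage list of 9 genes had a mean of 4.41 ± 0.84 (SD, n = 3) with CPA and 4.72 ± 1.0 (n = 5) with corn oil, the sinusoidal endothelial list 3.38 and 3.93, the stellate cell list 3.05 and 3.46, and the T and NK cell list 2.62 and 2.69. B cell (3.26 and 3.39), neutrophil (2.17 and 2.21) and erythroid (3.02 and 3.06) lists were lower as well, and the cholangiocyte list stood at 3.75 against 3.31 with 1 of 5 members called higher. Of the macrophage genes 1 was called higher as well. Of 13 hepatocyte markers, 5 fell and 1 rose, and the list mean was 11.60 against 11.87. Of all genes 22.5% were called higher and 11.7% lower at 24 h, and 15.0% and 9.29% at 6 d. The called shares of the cholangiocyte and macrophage lists at 24 h thus did not exceed the background. At 6 d the macrophage list stood at 6.46 ± 0.16 (n = 3) with CPA and 5.25 ± 0.18 (n = 3) with corn oil, with 8 of 9 members above 0, 1 called higher and 1 lower. The median change of this list was 1.34, and 6 of 9 had an unadjusted p under 0.05 in limma, against 4882 of all 14217 genes. All CPA arrays lay above all corn oil arrays for 8 of the 9, against 3365 of all genes. Its mean stayed below the 10.80 of the MC corn oil group. The cholangiocyte list stood at 4.26 against 3.42, with 2 of 5 members called higher. Of the hepatocyte markers 4 of 13 fell and 1 rose at 6 d, with a mean of 11.62 against 11.87, and of the stellate markers 1 of 10 rose, with a mean of 3.76 against 3.74. The endothelial list stood at 4.09 against 4.40, with none called, and of the T and NK cell and B cell lists 1 gene each fell. The neutrophil (2.31 against 2.12) and erythroid (3.26 against 3.06) lists were higher, with none called. The part of these cell types in the result at 6 d was not tested. A larger share of cells in mitosis and more mitotic RNA per cell cannot be told apart in these bulk samples.

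In mesenchymal cells 24 h after CPA the rise was smaller and partial. The mean over the genes was 4.29, 4.56 and 4.49 with CPA and 4.40, 3.55, 3.77, 3.56 and 3.47 with corn oil, so corn oil replicate 1 lay among the treated arrays. In limma 11 of 35 were called higher and 0 lower, against 2.23% and 0.309% of all genes, and 21 of 35 had an unadjusted p under 0.05. The largest rises were those of Spc25 (2.52, SE 0.21, adjusted p = 9.41e-08), Cdk1 (1.65, SE 0.38, adjusted p = 0.0176) and Cdca3 (1.52, SE 0.28, adjusted p = 0.00291). Pbk (1.46), Ube2c (1.31), Ect2 (1.20), Nusap1 (1.20), Ccnb1 (1.18), Aurkb (1.12), Bub1 (1.0) and Cdc20 (0.85) rose as well. Kif23 (-0.13) and Pimreg (-0.32) were the 2 members below 0, and neither was called. The count fell to 3 without CPA replicate 2 or without CPA replicate 3, while Ccnb1, Spc25 and Cdca3 were called without any single array. It was 1 in a fit of the CPA and corn oil groups alone, 9 with CO_Co as the control, and 23 with array weights.

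The single arrays show where the groups met in MC at 24 h. Cdk1 stood at 5.95, 4.45, 4.54, 4.25 and 3.75 in corn oil and at 6.00, 6.39 and 6.32 with CPA, so corn oil replicate 1 was just below the lowest treated array. Ccnb1 was at 3.44, 2.85, 3.13, 2.93 and 2.55 against 4.0, 4.16 and 4.32, and Aurkb at 3.94, 3.49, 3.64, 3.81 and 3.51 against 4.46, 4.96 and 4.97, both without overlap. Bub1 was at 3.91, 3.27, 3.59, 2.79 and 3.06 against 3.91, 4.15 and 4.90, where the lowest treated array did not pass the highest control. Racgap1, Top2a, Mki67 and Plk1 were not called. Racgap1 was at 5.05, 3.62, 4.33, 4.01 and 4.09 against 4.44, 5.02 and 5.02 (0.61, SE 0.27), and Top2a at 4.84, 3.71, 3.72, 3.46 and 3.27 against 4.22, 4.65 and 4.61 (0.69, SE 0.25). Mki67 was at 5.58, 4.20, 4.47, 4.16 and 3.93 against 4.69, 5.26 and 4.74 (0.43, SE 0.28), and Plk1 at 4.16, 3.59, 3.57, 3.59 and 3.34 against 4.20, 3.88 and 3.76 (0.30, SE 0.17). Corn oil replicate 1 lay above all treated arrays for Racgap1, Top2a and Mki67 and inside their range for Plk1.

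By 6 d of CPA the mesenchymal fraction had risen across the set. The mean over the genes was 6.03, 6.04 and 6.37 with CPA and 3.79 on each corn oil array. In limma 34 of 35 were called higher and 0 lower, against 2.04% and 0.190% of all genes, and the median change was 2.41. The 34 called mitosis genes were among 290 genes called higher in all. Cdk1 (3.46, SE 0.42), Ccnb2 (3.14, SE 0.32) and Mki67 (3.14, SE 0.32) rose most, and Plk1 least of those called (1.09, SE 0.19). Cks2 was the gene not called, at 8.16 ± 0.31 with CPA and 6.20 ± 0.86 with corn oil (1.96, SE 0.55, adjusted p = 0.0604). The treated arrays lay above the corn oil arrays for all 35. The share of all genes with that pattern in MC is not given here. In HC at 6 d, with as many arrays, it held for 3365 of all 14217 genes, so such separation was not rare there. More genes were called higher in HC at 6 d (15.0%) than in MC, so the HC share is not the background of MC. The near-identical pair also counts as 2 of the treated MC arrays. With CPA replicates 1 and 2, the near-identical pair, averaged into 1, 34 were called, and in a fit that adds the mean of the hepatocyte markers as a covariate 35.

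By role, the entry kinases and cyclins rose for 7 of 8 in MC at 6 d, and every other role group in full. Cdk1 stood at 4.84, 4.77 and 4.24 in corn oil and at 7.96, 7.97 and 8.31 with CPA. Ccnb1 was at 3.21, 3.06 and 3.26 against 5.56, 5.50 and 5.93, and Plk1 at 3.71, 3.88 and 3.68 against 4.85, 4.75 and 4.95. None of the 3 overlapped between treated and vehicle arrays. Bub1 was at 3.50, 3.47 and 3.52 against 6.23, 6.23 and 6.36, and Aurkb at 3.64, 3.63 and 3.84 against 5.92, 5.78 and 5.65. Racgap1 was at 4.41, 4.63 and 4.76 against 7.10, 6.97 and 6.95. These checkpoint, passenger and cytokinesis genes rose by 2.78, 2.08 and 2.41, more than the spread within either group. Top2a was at 3.84, 4.13 and 3.83 against 6.23, 6.43 and 6.72, and Mki67 at 3.89, 4.72 and 4.63 against 7.35, 7.43 and 7.89. Pimreg, which stayed near 2 in every HC group, was at 2.11, 2.30 and 2.26 against 4.88, 5.14 and 5.41 in MC, a rise of 2.92 (SE 0.45, adjusted p = 1.27e-04 in limma).

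Markers of other cells were measured beside this rise too. The hepatocyte marker mean in MC was 9.23 ± 0.82 (n = 3) with CPA for 6 d and 9.21 ± 0.52 (n = 3) with corn oil. The mean over the mitosis genes with CPA for 6 d was 6.15 in MC and 5.90 in HC. At 24 h the hepatocyte markers in MC were at 9.44 ± 0.88 (n = 3) with CPA and 8.93 ± 1.40 (n = 5) with corn oil, and 12 genes were called with that mean as a covariate. At 6 d the neutrophil list stood at 5.16 against 4.37, the cholangiocyte list at 3.13 against 2.47 and the T and NK cell list at 6.57 against 6.34. The macrophage (10.54 and 10.80), endothelial (9.24 and 9.55), stellate (4.48 and 4.75) and B cell (4.54 and 5.02) lists were lower, the erythroid list was at 4.93 against 4.81, and the part of these cells was not tested. Which cells of the fraction carried the mitotic RNA is not given by the arrays.

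**Figure D3:**
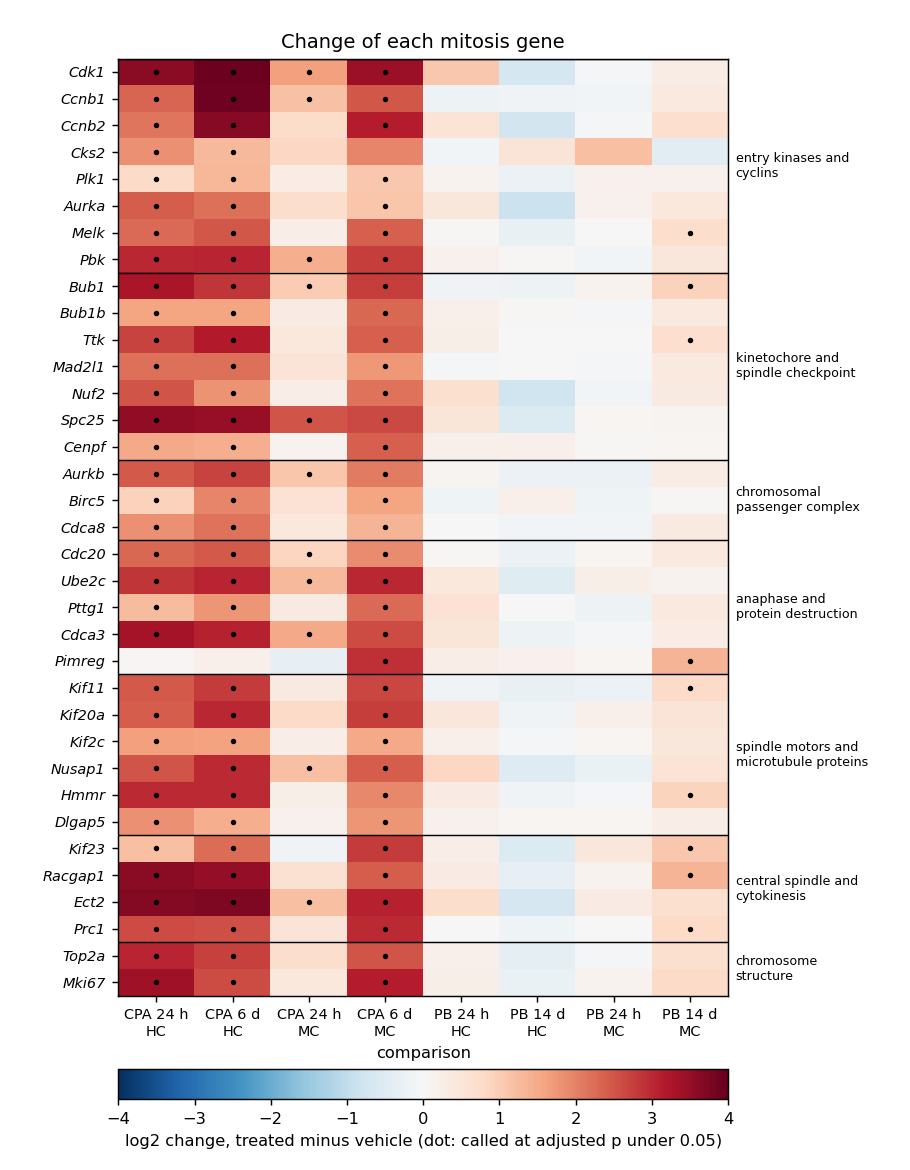
Log2 change (treated minus vehicle) of the 35 measured mitosis genes in the 8 treatment comparisons, ordered by role, with a dot where limma called the gene at an adjusted p under 0.05. The columns for cyproterone acetate in hepatocytes and at 6 d in mesenchymal cells are called for 34 genes each, the 24 h mesenchymal column for 11, and phenobarbital for 9 genes at 14 d in mesenchymal cells.

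In mesenchymal cells the response to CPA was larger after 6 d than after 24 h. The change at 6 d was above that at 24 h in MC for 35 of 35 genes, and limma called the difference for 20 of 35, all larger at 6 d, against 0.478% of all genes. Pimreg (3.25, SE 0.60), Kif23 (2.91, SE 0.31) and Mki67 (2.71, SE 0.43) gained most. Averaging the near-identical arrays gave 18, and leaving out any single array 16 to 22. The difference between the fractions in this time course was not tested.

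At 24 h the CPA effect was larger in HC than in MC for 35 of 35 genes, with a median difference of 1.54. Limma called 27 of 35 as larger in HC and 0 as smaller, against 8.43% of all genes (6.20% and 2.23%). Racgap1 (2.99, SE 0.45, adjusted p = 1.8e-05), Mki67 (2.97, SE 0.56), Hmmr (2.74, SE 0.42) and Ect2 (2.46, SE 0.56) differed most. Spc25, which rose most in MC, was not called (1.04, SE 0.51, adjusted p = 0.239), nor were Ccnb1, Ccnb2, Cks2, Plk1, Birc5, Pttg1 and Pimreg. The number called was 16 without HC CPA replicate 1, the highest array for 34 of the 35 genes.

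At 6 d the change was larger in HC for 25 of 35 genes, with a median difference of 0.26. Limma called 1 of 35, against 3.13% of all genes higher and 1.45% lower. That gene was Pimreg, whose change was 2.74 smaller in HC (-2.74, SE 0.49, adjusted p = 1.92e-04). With the near-identical CPA arrays averaged 1 was called as well. The other 34 differences were not called, which does not show that they were equal: the largest were 1.41 for Ccnb1 and -0.93 for Cenpf. Without HC corn oil replicate 1 for 6 d, 6 were called, of which 5 were larger in HC, and with array weights 10, of which 9 were larger in HC.

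**Figure D4:**
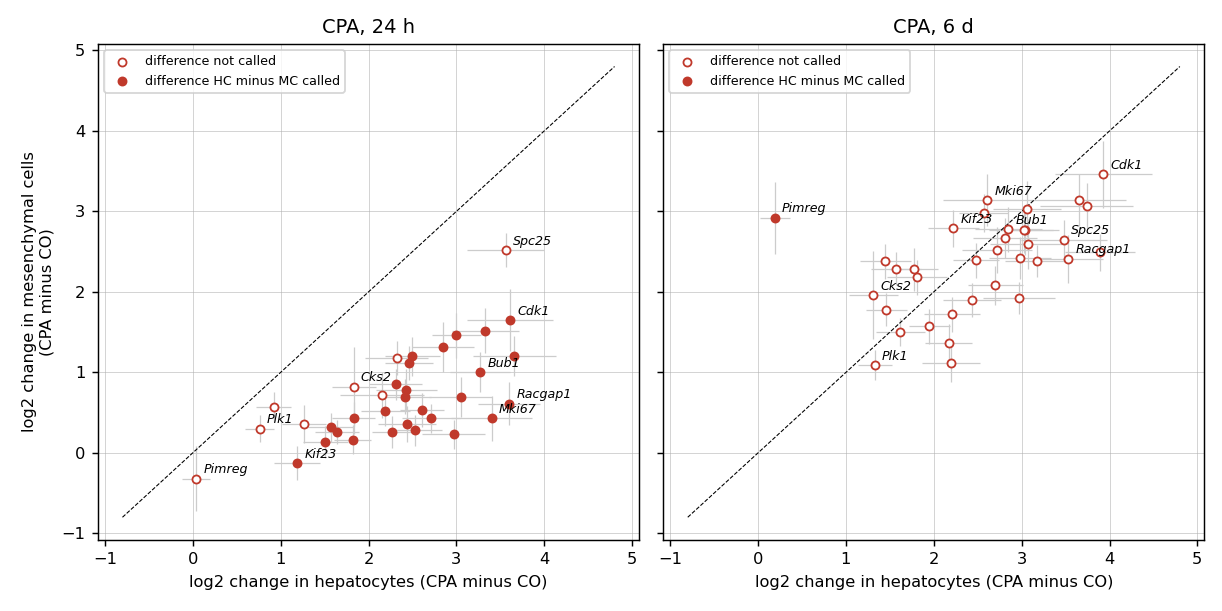
Log2 change after cyproterone acetate in hepatocytes (x axis) and mesenchymal cells (y axis) for the 35 mitosis genes at 24 h (left) and 6 d (right). Grey bars are standard errors, the dashed line marks equal change, and filled points are genes whose difference limma called. All 35 points lie below the line at 24 h, and 25 at 6 d, where Pimreg is the called gene.

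Phenobarbital was followed by no called change of the set in hepatocytes. At 24 h the mean over the genes was 3.12, 3.21 and 3.52 with PB and 3.00, 2.99 and 3.08 with water, and limma called 0 of 35, with 2 at an unadjusted p under 0.05, against 0.0774% of all genes (0.0281% higher and 0.0492% lower). The median change was 0.21. Cdk1 had the largest change, 3.60, 3.65 and 4.49 with PB against 2.71, 2.57 and 3.19 with water (1.09, SE 0.55, adjusted p = 0.746), without overlap. All PB arrays lay above all water arrays for 4 of the 35 and for 944 of all 14217 genes. Nusap1 stood at 4.25 ± 0.23 against 3.41 ± 0.28 (0.84, adjusted p = 0.616). At 14 d the mean over the genes was 3.07, 2.98 and 3.24 with PB and 3.51, 3.31 and 3.16 with water. Limma again called 0 of 35, with 2 at an unadjusted p under 0.05, against 0.0633% of all genes (0.0422% higher and 0.0211% lower), and the median change was -0.20. The change was below 0 for 27 genes, the lowest being Aurka at 2.94 ± 0.17 against 3.80 ± 0.24 (-0.86, SE 0.33, adjusted p = 0.313) and Nuf2 (-0.81, SE 0.34, adjusted p = 0.375). The hepatocyte effect of PB at 24 h was below that of CPA for 30 of 35 genes by limma's test of the difference, against 14.2% of all genes lower and 6.56% higher. Bub1 (-3.40, SE 0.51), Racgap1 (-3.26, SE 0.52) and Mki67 (-3.16, SE 0.69) differed most, with sex and vehicle differing alongside.

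In mesenchymal cells PB was followed by no called change at 24 h and by small rises of some genes at 14 d. At 24 h the mean was 3.74, 3.92 and 3.92 with PB and 3.81, 3.76 and 3.87 with water. Limma called 0 of 35 and 0 of all genes, with 1 member at an unadjusted p under 0.05, Cks2 (1.20, SE 0.55, adjusted p = 0.999). Averaging the near-identical water replicates 1 and 2 left the count at 0. At 14 d the mean was 4.28, 3.54 and 4.40 with PB and 3.63, 3.43 and 3.65 with water, so PB replicate 2 lay within the water range. Limma called 9 of 35 higher and 0 lower, against 9.36% and 9.02% of all genes, and 14 had an unadjusted p under 0.05.

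The genes that rose in MC at 14 d of PB were Racgap1, Pimreg, Kif23, Bub1, Hmmr, Kif11, Prc1, Melk and Ttk. Racgap1 stood at 5.69, 4.02 and 5.29 against 3.59, 3.55 and 3.75 in water (1.37, SE 0.30, adjusted p = 0.00687), with all PB arrays above. Pimreg was at 4.19, 2.49 and 4.46 against 2.37, 2.01 and 2.66 (1.37, SE 0.45, adjusted p = 0.0373), and Bub1 at 3.10, 2.36 and 3.81 against 2.08, 2.07 and 2.37 (0.92, SE 0.28, adjusted p = 0.0283). For Pimreg and Bub1 PB replicate 2 fell inside the water range. Kif23 rose by 1.08 (SE 0.23) and Hmmr by 0.88 (SE 0.20). These values are of the brighter probe sets, and the dimmer sets of the called genes that had one moved less. The dimmer set changed by -0.08 for Kif23, 0.18 for Hmmr, 0.07 for Kif11 (0.78 on the set used), -0.0 for Ttk (0.67) and 0.43 for Racgap1. Cdk1 was at 5.06, 3.78 and 6.10 against 4.52, 4.39 and 5.11, Mki67 at 4.59, 3.50 and 4.45 against 3.33, 3.42 and 3.55, and Top2a at 4.41, 3.47 and 4.56 against 3.68, 3.47 and 3.33, none of them called. PB replicate 2 was the lowest of its group for 32 of the 35 genes, and the median SD of the 35 among these PB arrays was 0.54, against 0.20 for all genes.

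Hepatocyte markers were lower beside these mesenchymal rises at 14 d, and their part in the result was not tested beyond the fit with their mean as a covariate. The hepatocyte marker mean was 8.52 ± 0.73 (7.85 to 9.30) with PB and 10.25 ± 0.12 (10.11 to 10.34) with water, and 4 of 13 of these markers fell and 0 rose. With that mean as a covariate limma called 0 of 35, with 5 at an unadjusted p under 0.05 and a median change of 0.25 in place of 0.43. The macrophage list stood at 10.66 against 9.91 with 3 of 9 called higher, the endothelial list at 9.85 against 9.20 with 2 of 9 higher, and the erythroid list at 4.91 against 5.80 with 2 of 5 lower. Among all genes 9.36% were called higher and 9.02% lower in this comparison. The stellate (4.51 and 4.69), T and NK cell (5.98 and 5.94), B cell (4.93 and 5.12), neutrophil (3.92 and 4.48) and cholangiocyte (2.59 and 2.70) lists had no called member. The count was 16 without PB replicate 2, 2 without PB replicate 1 (Hmmr and Kif23), and 4 without PB replicate 3, water replicate 1 or water replicate 2. In a fit of the PB and water groups alone 2 were called, and with a common median of all arrays 3. The change of Bub1 was 0.56 and not called without PB replicate 3, and that of Racgap1 was 0.90 with its probe sets averaged. Same-numbered PB and water arrays of MC at 14 d deviated together (r of 0.26 to 0.64). Only 1 of the 3 PB arrays was closest to the water array of its own number, so the pairing is uncertain. A replicate block left 9 called.

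The difference of the PB effect between fractions at 14 d was called for 3 of 35 genes, all lower in HC, against 10.1% of all genes (6.63% higher and 3.51% lower). They were Racgap1 (-1.69, SE 0.51), Kif23 (-1.63, SE 0.38, adjusted p = 0.00603) and Aurka (-1.29, SE 0.42). With HC and MC arrays of the same number paired as a random block, 5 were called, all lower in HC. The count was 1 without HC water replicate 1, MC water replicate 1, HC PB replicate 2 or MC PB replicate 1, and 9 without MC PB replicate 2. Without MC PB replicate 3 it was 2, with 1 in each direction. At 24 h limma called 0 of 35, with 2 at an unadjusted p under 0.05, and 0 of all genes. Between 14 d and 24 h the PB effect in MC differed for 0 of 35 genes in limma, with 8 at an unadjusted p under 0.05, against 0.00703% of all genes, all lower. With the near-identical water arrays averaged, both of these counts were 0 as well.

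The corn oil groups set the scale of change without treatment. CO_Co minus corn oil at 24 h had a median change over the 35 genes of 0.14 in HC and 0.22 in MC, and corn oil for 6 d minus 24 h one of 0.19 and 0.04. In each of these 4 comparisons limma called 0 of 35, with 0 at an unadjusted p under 0.05, and at most 0.0703% of all genes (0.00703% higher and 0.0633% lower, in HC for CO_Co). The largest single change of a mitosis gene among them was 0.49.

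Other genes of mitosis rose after CPA too. Of 60 further listed genes 51 were measured, and after CPA 42 rose in HC at 24 h and 41 at 6 d, 12 in MC at 24 h and 37 at 6 d, with none lower. The shares of all genes called higher were 22.5%, 15.0%, 2.23% and 2.04% in that order, and lower 11.7%, 9.29%, 0.309% and 0.190%. Median changes of the 51 were 1.70, 1.34, 0.37 and 1.21. Ccna2 (cyclin A2, which drives S phase and early mitosis) rose by 4.23 at both times in HC and by 2.03 and 3.13 in MC. In HC at 24 h the next were Shcbp1, a midbody protein (3.37), Stmn1, which destabilises microtubules (3.22), and Plk4, the kinase of centriole duplication (3.22). At 6 d Shcbp1 (3.11) and Stmn1 (3.02) were again among the largest rises. In MC the others were Spc24 (2.12), a partner of Spc25, and the kinetochore genes Ska1 (1.88) and Cenpk (1.87) at 24 h, then Shcbp1 (3.19), Cenpw of the centromere (2.75) and the spindle pole gene Aspm (2.66) at 6 d. After PB, 8 of 51 rose in MC at 14 d, among them Kif15 (1.46), Plk4 (1.0) and the condensin gene Smc2 (0.99), and Cks1b, a paralogue of Cks2, fell by 1.47. Of all genes 9.36% were called higher and 9.02% lower there, and whether the 51 differ from these shares was not tested. In the other 3 PB comparisons limma called 0 of 51.

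Genes of a list drawn up as brakes on CDK1 and mitotic entry were called in both directions in HC. Of 13 measured, 9 rose and 3 fell at 24 h of CPA, and 6 rose and 1 fell at 6 d. Of all genes 22.5% were called higher and 11.7% lower at 24 h, and 15.0% and 9.29% at 6 d, so the share of these genes that fell at 6 d was near the background. Cdkn1a, which encodes the CDK inhibitor p21, rose by 2.76 (SE 0.34) and 3.90 (SE 0.38), to 8.93 ± 0.03 (n = 3) at 6 d. Wee1, the kinase that phosphorylates CDK1 to hold it inactive, rose by 2.07 and 1.80, and Ccng1, an atypical cyclin, by 1.81 and 1.91. Gadd45b rose by 2.13 at 24 h, and Cdkn1c, the inhibitor p57, by 1.04 at 6 d. The genes that fell were Gadd45g (by 1.37 and 2.02), Ccng2 (by 0.74) and Btg1 (by 0.64), the latter pair called at 24 h. In MC, Chek1, the checkpoint kinase, rose by 1.05 at 24 h, and Cdkn1a (2.12) and Fbxo5 (0.91) at 6 d. Fbxo5, also among the genes called higher in HC (1.25 and 0.61), inhibits the anaphase-promoting complex. That complex destroys cyclin B, so the rise of Fbxo5 is not that of a brake on CDK1. No member was called after PB in either fraction, by limma.

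The genes varied together from array to array within a group. In HC at 24 h of CPA, replicate 1 had the highest value for 34 of 35 genes and replicate 3 the lowest for 30, and the median SD of the 35 was 0.78, against 0.16 for all genes. In MC of the same numbers, replicate 1 was the lowest for 23. At 6 d of CPA the median SD in HC was 0.19 and in MC 0.23. Among corn oil arrays, replicate 1 was the highest for 28 genes in HC at 24 h, for 31 in MC at 24 h and for 34 in HC at 6 d, with median SDs of 0.35, 0.41 and 0.65. Across the 35 genes Pearson's r was 0.66 between the fractions at 24 h, 0.49 at 6 d and 0.31 between the times in MC, as descriptions, since the genes share arrays and cells.

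Of the 35 genes, 11 had more than 1 probe set, and the dimmer ones mostly moved less. Kif23 changed by 1.19 on the brighter probe set, which was used (mean level 3.60), and by -0.37 on the other (mean level 2.40) in HC at 24 h of CPA. The dimmer set of Ttk changed by 0.52 in place of 2.71, and that of Kif2c by 0.48 in place of 1.64. Ccnb1 changed by 2.40 and 2.32 on its dimmer and brighter sets, Nusap1 by 1.99 and 2.50, and Top2a by 2.12 and 3.05. With all sets of a gene averaged, 33 of 35 were called higher in HC at 24 h of CPA and 34 at 6 d.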

How the data were processed

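Hepatocyte and mesenchymal cell fractions of rat liver were profiled on 60 Affymetrix arrays, and samples were grouped from the labels. The protocol text speaks of oil-treated controls while the sample labels give water for PB, and the labels were followed. The authors deposited log2 expression values made by robust multi-array averaging (RMA), per the submitters' processing notes; the RMA version is not given in the sources used here. Of 31042 probe sets, 20826 had 1 gene symbol, 436 several and 9780 none, and the brightest probe set stood for each of 14217 genes. RMA tends to compress changes of dim genes, whether all arrays were processed together is not given in the sources used here, and the number of arrays limits the precision.

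Treated minus vehicle changes were fitted in limma 3.58.1 (R 4.3.3) separately in HC and MC with all groups of a fraction. Differences between fractions used 1 fit of all arrays. P-values were adjusted by Benjamini-Hochberg over all genes, and genes under 0.05 were called. The steps were tested on simulated data. The members and lists were chosen with earlier results of these data known. Any member could be named. Otherwise the 3 called members with the largest change per direction, uncalled members where 5 or fewer, the smallest change, 4 called genes per direction of the other mitosis and brake lists, and the brightest gene of each marker list could be named. Marker lists were for hepatocytes, macrophages, endothelial, stellate, T and NK, B, neutrophil, erythroid and cholangiocyte cells.

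Same-numbered arrays were compared by the correlation of their deviations from group means. By that check alone, with every pair above 0.1, numbers paired PB and water at 14 d in HC (0.20 to 0.46) and MC (0.26 to 0.64). In MC at 14 d only 1 of the 3 PB arrays was closest to the water array of its own number. PB and water at 24 h did not pass the check, with lowest correlations of 0.1 in HC and 0.06 in MC. There all 3 PB arrays of each fraction were still closest to the water array of their own number. The check also paired HC with MC for PB at 24 h and 14 d, water at 14 d and corn oil at 24 h. In CPA, water and CO_Co at 24 h and corn oil for 6 d, the lowest correlation was 0.07 to 0.1. There every HC array was still closest to the MC array of its number. For CPA at 6 d 1 of 3 was. The main fit of fraction differences took all arrays as separate. The numbers did not pair CPA with corn oil. Alternatives were a replicate block, a sex term, array weights, a common median, averaged probe sets, a filter on dim genes, 2 groups only, a hepatocyte covariate, CO_Co as control and leaving out each array. Averaging the near-identical arrays was chosen after seeing the data.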

Additional observations from a re-analysis of the deposited data

Results flagged for a closer look

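Single arrays stood apart from their group for 2 of the 36 groups and quantities examined, where chance marks about 1 group in 20. For Ccnb1 in HC, corn oil replicate 1 at 24 h was at 3.80 while the others lay between 2.66 and 2.98. For Top2a in MC, corn oil replicate 1 at 24 h was at 4.84 while the others lay between 3.27 and 3.72.

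Effects that differed between fractions, times or compounds in limma's test of the difference were also marked. The CPA effect at 24 h differed between HC and MC for 27 genes, and at 6 d for 1. The PB effect at 14 d differed between the fractions for 3. The CPA effect differed between 6 d and 24 h for 2 genes in HC and for 20 in MC. The effects of PB and CPA in HC at 24 h differed for 30 genes, with sex and vehicle differing alongside.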

How the results depend on the processing

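Of 393 alternative values, 340 kept their direction and size, 49 moved and 4 reversed, and of 430 values of single genes 27 lost the call and 0 reversed. Counts below are of the mitosis genes called by limma, and unless stated the cause of a change was not tested. The filter on dim genes left only 3 of the 35 genes to test, so its counts had to fall: 3 in HC for CPA at 24 h and 3 at 6 d, in MC 1 for PB at 14 d, 0 for CPA at 24 h and 2 at 6 d, for HC minus MC 1 for PB at 14 d, 2 for CPA at 24 h and 0 at 6 d, for 6 d minus 24 h of CPA 0 in HC and 2 in MC, 3 for PB minus CPA and 1 for vehicle. Array weights gave 1 for PB at 24 h and 23 for CPA at 24 h in MC, 1 for PB at 24 h, 7 for PB at 14 d and 10 for CPA at 6 d (9 higher, reversing the direction) in HC minus MC, 5 for CPA over time in HC and 3 for PB over time in MC. Arrays shifted to 1 median gave 3 for PB at 14 d in MC and 15 for vehicle. The fit of 2 groups alone gave 2 for PB at 14 d and 1 for CPA at 24 h in MC. The hepatocyte covariate gave 0 for PB at 14 d in MC, averaged probe sets 1 for CPA over time in HC, and the sex term 9 for vehicle. The sex term rests on replicate 3 of PB and water at 24 h alone and does not adjust for sex. A replicate block gave 7 for CPA at 24 h in MC, whose numbers do not pair the arrays, 5 for PB at 14 d in HC minus MC, and 2 for CPA at 6 d in HC minus MC (1 in each direction). The block gave 34 for CPA in HC at both times and changed no other count by over 1.5 times. Leaving out single arrays gave ranges of 34 to 34 for CPA in HC at 24 h and at 6 d, 2 to 16 for PB at 14 d in MC, 3 to 14 for CPA at 24 h and 33 to 35 at 6 d in MC, 16 to 29 for HC minus MC at 24 h of CPA, 1 to 6 at 6 d and 1 to 9 at 14 d of PB, 0 to 3 for CPA over time in HC and 16 to 22 in MC, 27 to 31 for PB minus CPA, and 21 to 28 for vehicle. With 3 treated arrays per group and most of these genes below the median level in vehicle, small changes of the dimmest genes could not be resolved.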
